A study of Danio rerio with 6 samples.

Results

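The genes described here are the nuclear genes for the oxidative phosphorylation machinery of the mitochondrion, as counted in sorted zebrafish hindbrain cells. They were chosen by name. A gene outside the mitochondrial chromosome was taken if its symbol began with ndufa, ndufb, ndufc, ndufs, ndufv, uqcr, cox4, cox5, cox6, cox7, cox8 or atp5 and if its counts summed to at least 30 over all 6 libraries. Of 32520 genes in the tables, 99 had such a symbol and 97 reached the sum. They lie on 25 chromosomes. By role they were divided into 37 subunits of complex I, 8 complex I assembly factors (ndufaf genes), 8 subunits of complex III, 24 genes of complex IV including ndufa4 and its relatives, and 20 genes of ATP synthase including its inhibitors. They were set against the 37 genes of the mitochondrial genome.

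All embryos carried the Tg(isl1:Kaede) transgene, in which isl1 regulatory sequence drives the fluorescent protein Kaede in cranial motor neurons, and the medium of every embryo held PTU at 0.2 mM, an inhibitor of melanin synthesis. The RA group received 50 nM retinoic acid (RA) in DMSO, starting at 24 hours post fertilization (hpf), and the DMSO group an equal volume of DMSO. At 38 hpf the posterior hindbrain was dissected and dissociated, and Kaede-positive cells that excluded DAPI were sorted, 4500 to 10000 per library. There are 3 RA libraries (replicates 6, 9 and 12) and 3 DMSO libraries (replicates 1, 4 and 10).

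Oxidative phosphorylation couples the oxidation of NADH and succinate to the synthesis of ATP. Complex I takes electrons from NADH, complex III passes them from ubiquinol to cytochrome c, complex IV hands them to oxygen, and ATP synthase uses the proton gradient that the pumping complexes build. All of these enzymes are made of proteins from both genomes. The mitochondrial genome encodes a core set of membrane subunits and the ribosomal and transfer RNAs used to translate them. Nuclear genes encode the other subunits. Neurons depend on this pathway for most of their ATP. Retinoic acid, a vitamin A derivative, acts through nuclear receptors that pair with retinoid X receptors and patterns the hindbrain along its length.

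The libraries held 15971653 to 22349857 counted fragments in RA and 20432411 to 23411427 in DMSO. The label motor neuron was checked against 23 marker genes, of which 21 were found and none had 0 counts. Gene isl1a, the LIM-homeodomain factor of motor neurons, lay at 985 to 1466 CPM (counts scaled by the library total) in RA and 1650 to 2385 CPM in DMSO. Gene chata, which makes acetylcholine, lay at 39.3 to 65.9 CPM in RA and 46.5 to 68.2 CPM in DMSO. The chata values overlapped between groups. The summed motor neuron markers were lower in every RA library (8947 to 11083 CPM) than in any DMSO library (11795 to 15091 CPM). That list also named general neuronal genes such as elavl3 and stmn2a, so its sum does not measure motor neurons alone. Markers of other cells were present too. Muscle markers (15 found) summed to 2148, 65.4 and 72.2 CPM in RA replicates 6, 9 and 12 and to 327, 980 and 48.9 CPM in DMSO replicates 1, 4 and 10. Epidermal markers (14 found) were highest in RA replicate 9, at 1062 CPM, against 167 to 505 CPM in the other libraries. Neural progenitor and glial markers (16 found) were highest in the same library, at 5223 CPM against 3083 to 3804 CPM elsewhere. Erythrocyte markers (9 found) summed to 98.6 CPM in DMSO replicate 10 and at most 1.505 CPM elsewhere. Bulk counts cannot tell fewer cells of a type from less RNA per cell, and the part of these cells in the values below was not tested. The labels do not say whether the libraries came from separate clutches or days, so the p-values measure the spread between these libraries alone, which may be partly technical.

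No nuclear oxidative phosphorylation gene passed the test for a change with RA. Of the 97 genes, 92 passed the filter on low counts and were tested, and 0 of these 92 passed an adjusted p of 0.05 (edgeR quasi-likelihood test, Benjamini-Hochberg over all 17270 tested genes). Over all tested genes, 138 passed, which is 0.799% of them, with 0.446% higher and 0.353% lower in RA. A share of 0 among 92 genes is close to that background. DESeq2, which called 3.89% of all genes, and limma-voom, which called 0.625%, also called 0 of the 92. The smallest adjusted p of any of these genes was 0.465. At an unadjusted p under 0.05 there were 3 (3.26%), against 10.2% of all tested genes. They were atp5mg, atp5f1e and ndufa4b.

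The measurements were precise enough to bound most of these differences. The median standard error of the log2 fold change was 0.134 over the 92 genes and 0.26 over all tested genes. The 95% interval of the fold change lay within 2-fold in either direction for 89 of 92 genes and within 1.5-fold for 75. Each interval covers its own gene only. The median log2 fold change (RA over DMSO) was -0.04 over the 92 genes and 0.02 over all tested genes. It was positive for 34 genes and negative for 58, from -0.29 for atp5md to 0.38 for ndufa4b. The biological coefficient of variation, the spread between libraries beyond counting error, had a median of 0.160 over these genes and 0.203 over all tested genes with a mean of at least 10 CPM.

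**Figure D1:**
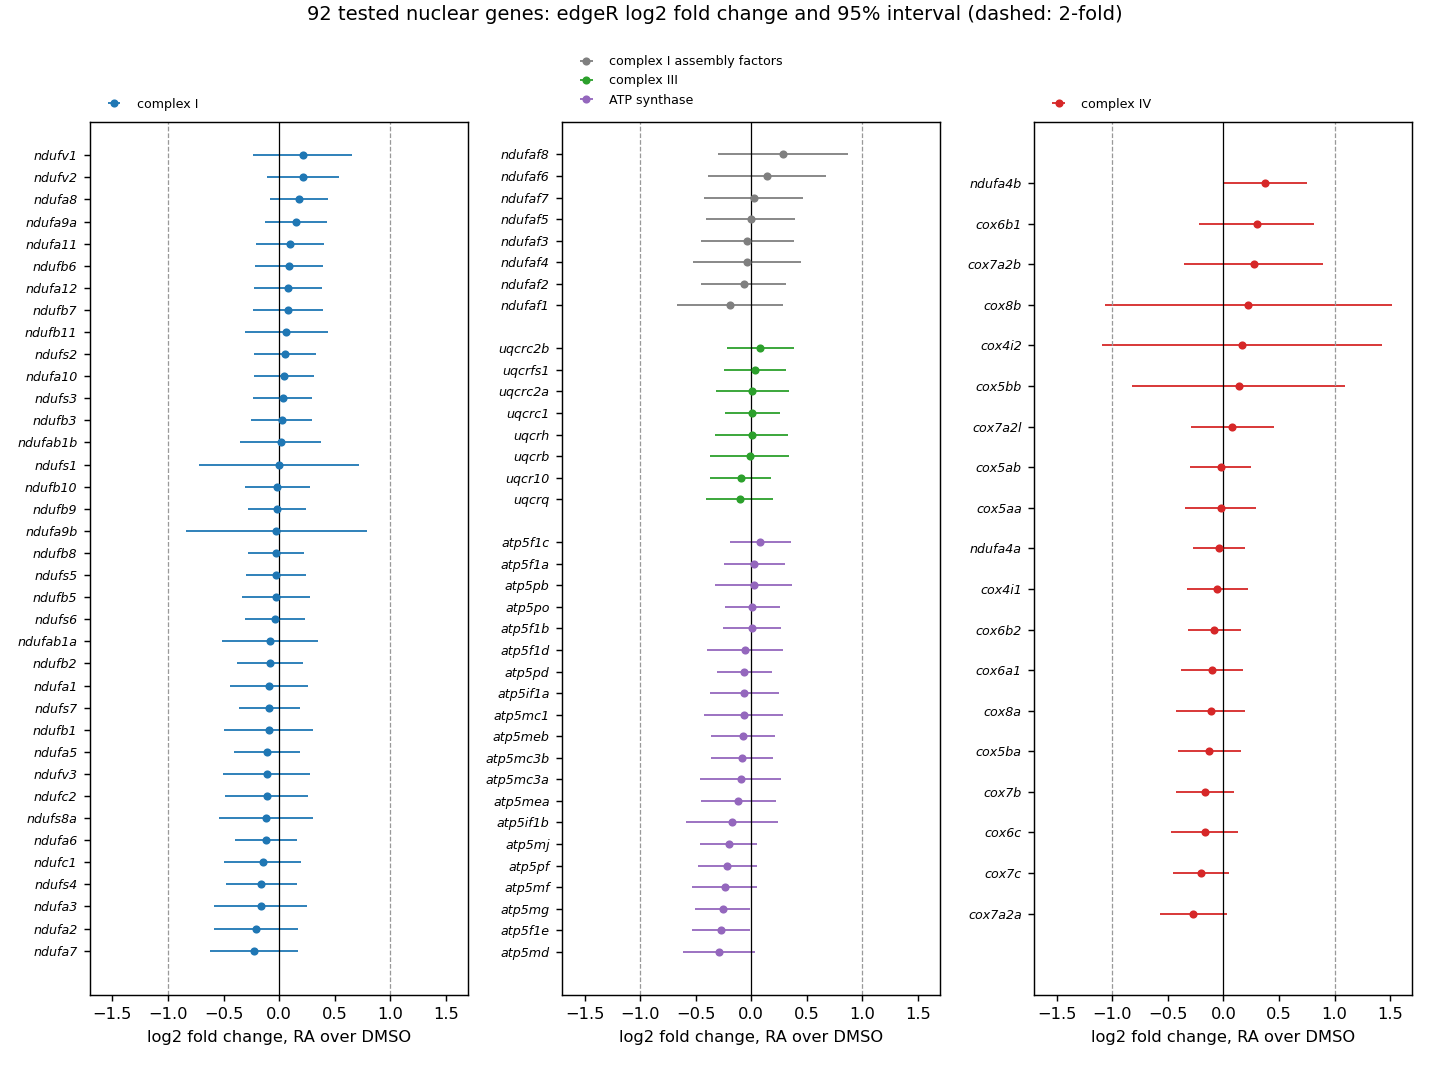
Log2 fold change, RA over DMSO, of the 92 tested nuclear genes with its 95% interval (edgeR, n = 3 libraries per group), by complex and sorted by value. Dashed lines mark 2-fold, and the intervals of 89 genes stay inside them; the wide ones belong to low-count isoforms such as cox8b and cox4i2.

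Levels were compared between genes as TPM, a transcript share that divides counts by exon length. Over all 6 libraries the median of the 97 genes was 219.7 TPM, and 74 of them had a mean of at least 100 TPM. Only 9 had a mean under 10 TPM. The medians of the ATP synthase genes were 317 TPM in RA and 336 TPM in DMSO. Those of complex I were 247 TPM in RA and 226 TPM in DMSO, those of complex IV 189 TPM in RA and 178 TPM in DMSO, and those of complex III 175 TPM in RA and 169 TPM in DMSO. The assembly factors were far lower, at 29.9 TPM in RA and 27.6 TPM in DMSO. Over all 97 genes these medians were 216.1 TPM in RA and 216.2 TPM in DMSO. The middle gene can differ between RA and DMSO, so these medians are not fold changes. The median log2 fold change, given below, was negative in every role but complex III.

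Complex I is the largest enzyme of the chain. All 37 of its genes that the symbol rule took were tested. Genes ndufa13 and ndufs8b found no matching symbol and are not among them. Of the 37, 14 had a positive and 23 a negative log2 fold change, and their median was -0.03. The most abundant was ndufb9, an accessory subunit of the membrane arm (chromosome 16, 6386941 to 6391275, minus strand, GRCz11). It had 816, 761 and 901 TPM in RA replicates 6, 9 and 12, against 820, 849 and 831 TPM in DMSO replicates 1, 4 and 10. The RA libraries lay on both sides of the DMSO libraries, and the log2 fold change was -0.02 (adjusted p = 0.989 in edgeR, SE 0.12).

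The highest log2 fold change in complex I was that of ndufv1, the flavoprotein subunit that binds NADH (chromosome 19, 9212031 to 9228512, plus strand). It had 190, 137 and 218 CPM in RA, against 133, 185 and 153 CPM in DMSO. The groups overlapped, and the difference was 0.21 (adjusted p = 0.849 in edgeR, SE 0.20). Its partner ndufv2, an iron-sulfur subunit of the same module, also lay at 0.21 (SE 0.14). The lowest value was that of ndufa7, an accessory subunit (chromosome 8, 47804284 to 47811955, plus strand). It had 23.6, 21.1 and 25.6 CPM in RA and 28.9, 23.5 and 29.8 CPM in DMSO. The log2 fold change was -0.23 (adjusted p = 0.790 in edgeR, SE 0.17), again with overlap.

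Of the 37 complex I genes, 1 was higher in RA without overlap of the groups, where 7.78% of all tested genes were. Lower in RA without overlap were 0 of the 37, where 7.7% of all tested genes were. These counts are small, and their difference from the background was not tested. The 1 gene was ndufa8, an accessory subunit of the intermembrane space side, with 88.8, 90.3 and 88.3 CPM in RA and 75.3, 84.0 and 77.1 CPM in DMSO. Its log2 fold change was 0.18 (adjusted p = 0.718 in edgeR, SE 0.12), and it was picked out after its values were seen. Copies within pairs were set side by side by their share of TPM. Of ndufab1a and ndufab1b, which encode the mitochondrial acyl carrier protein, the first made up 58.6% ± 1.81 of the pair's TPM in RA and 60.2% ± 3.85 in DMSO (SD, n = 3). Gene ndufa9a made up 94.97% ± 1.02 of its pair in RA and 94.4% ± 1.06 in DMSO.

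The count of ndufs1, which encodes the largest iron-sulfur subunit of complex I, does not give its level. In the annotation 98.3% of its exon bases also belong to ino80db on the same strand, and fragments that fall on both genes were left out. It was listed at 3.27 ± 0.571 TPM in RA and 3.26 ± 0.587 TPM in DMSO (SD, n = 3), where the median complex I gene was above 220 TPM in both groups. Another 4 of the 97 genes share at least 20% of their exon bases with a neighbour. They are ndufb11 (66.4%, with rhoaa), uqcrb (52%), ndufaf3 (51.9%) and atp5f1e (30.5%). Of the prefix genes below the sum of 30 counts, ndufb4 had 1 count and shares 75.4% of its exon bases with hgd on the opposite strand, and ndufa4l2b had 11 counts. The lowest sums above the limit were 36 for cox5b2, 44 for cox6a2 and 47 for ndufa4l2a.

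The assembly factors help to build complex I and are not part of the finished enzyme. All 8 were tested, 3 with a positive and 5 with a negative log2 fold change, median -0.02. The most abundant, ndufaf5, a hydroxylase that modifies a core subunit (chromosome 1, 51221320 to 51229456, plus strand), had 62.7, 55.5 and 76.4 TPM in RA and 66.6, 69.95 and 58.1 TPM in DMSO. Its group means were the same within 0.1 TPM, and its log2 fold change was -0.00 (adjusted p = 0.999 in edgeR, SE 0.17). The extremes were ndufaf8 at 0.28 (SE 0.26) and ndufaf1 at -0.19 (SE 0.21). For ndufaf1 the 3 RA libraries lay between 38.5 and 40.1 CPM, while DMSO replicate 1 stood at 59.9 CPM and the other DMSO libraries at 40.2 and 35.4 CPM.

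Of the groups, the complex III genes that the symbol rule took varied least. All 8 were tested, and their log2 fold changes spanned -0.10 (uqcrq) to 0.08 (uqcrc2b). Gene cyc1, a further complex III subunit that the rule does not reach, lay above this span and is given below. The median of the 8 was 0.01, which lay between -0.01 and 0.02 under other scalings. When a library was left out it lay between -0.09, without RA replicate 12, and 0.08, without RA replicate 9. All 8 intervals lay within 1.5-fold. The most abundant was uqcrc1, a core subunit (chromosome 6, 22337081 to 22351939, plus strand), with 592, 566 and 641 TPM in RA against 599, 626 and 556 TPM in DMSO. The log2 fold change was 0.01 (adjusted p = 0.995 in edgeR, SE 0.11). Gene uqcrfs1, the Rieske iron-sulfur protein, had 205 ± 19.96 TPM in RA and 200 ± 14.4 TPM in DMSO (SD, n = 3). The copies of the other core subunit, uqcrc2a and uqcrc2b, were used about equally, with uqcrc2a at 50.4% ± 2.33 of the pair in RA and 51.7% ± 4.26 in DMSO.

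Complex IV is the part of the chain with the most tissue-type isoforms, and it also had all of the untested genes. Of its 24 genes 19 were tested, with 7 positive and 12 negative log2 fold changes and a median of -0.04. The most abundant gene of the complex was cox7c, a small membrane subunit (chromosome 5, 47726197 to 47727819, minus strand). It had 1337, 1200 and 1325 TPM in RA, against 1574, 1460 and 1399 TPM in DMSO. Every RA library lay below every DMSO library, yet the difference of -0.20 (SE 0.11) did not pass the test (edgeR adjusted p = 0.622). The lowest log2 fold change was that of cox7a2a (chromosome 17, 49983157 to 49995366, minus strand), at -0.27 (adjusted p = 0.549 in edgeR, SE 0.13). It had 208, 196 and 244 CPM in RA and 284, 262 and 235 CPM in DMSO.

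The highest log2 fold change of all 92 genes was that of ndufa4b (chromosome 12, 9880493 to 9884326, plus strand). Its mammalian relative NDUFA4 was first assigned to complex I and is now counted as a subunit of complex IV. It had 48.1, 64.8 and 58.1 CPM in RA, against 45.4, 47.5 and 38.9 CPM in DMSO. The groups did not overlap, with RA replicate 6 just above DMSO replicate 4. The log2 fold change was 0.38 (unadjusted p = 0.0475 and adjusted p = 0.477 in edgeR, SE 0.16), and over 16 alternative settings it lay between 0.26 and 0.48. That range is no support, because ndufa4b was picked as the highest of the 92 genes. Its copy ndufa4a had 162, 156 and 161 CPM in RA and 165, 164 and 164 CPM in DMSO, a log2 fold change of -0.04 (SE 0.10). Within the ndufa4 family, ndufa4b took 45.4% ± 4.59 of the TPM in RA and 38.6% ± 2.36 in DMSO (SD, n = 3). This share was not tested, because its genes were named with their values known.

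In the cox4, cox6a, cox8 and cox5b families of complex IV a single isoform carried nearly all of the RNA in both groups. Gene cox4i1, the ubiquitous form of subunit 4, took 98.1% ± 1.83 of the cox4 TPM in RA and 98.8% ± 0.197 in DMSO (SD, n = 3). Its counterpart cox4i2, which in mammals is the form of lung and low oxygen, had 5.44 ± 3.79 TPM in RA and 4.80 ± 0.832 TPM in DMSO. Gene cox6a1 took 99.8% ± 0.0781 of its family in RA and 99.9% ± 0.0336 in DMSO, over cox6a2, the form of heart and skeletal muscle in mammals. Gene cox8a took 98.5% ± 0.863 in RA and 98.9% ± 0.335 in DMSO, and cox5ba took 98.1% ± 0.368 in RA and 98.5% ± 0.669 in DMSO. The muscle form cox7a1 was counted in 1 library of each group only, with 62 fragments in RA replicate 9 and 114 in DMSO replicate 1. Muscle markers summed to 65.4 CPM in RA replicate 9 and 327 CPM in DMSO replicate 1, against 48.9 to 2148 CPM elsewhere. The part of muscle cells in the cox7a1 counts was not tested.

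Other subunits were shared between copies. Gene cox5aa took 59.4% ± 1.93 of the cox5a TPM in RA and 59.5% ± 1.64 in DMSO, beside cox5ab. Gene cox7a2a took 74.8% ± 7.72 of the summed TPM of cox7a1, cox7a2a and cox7a2b in RA and 80.9% ± 4.49 in DMSO. Gene cox7a2l, with means of 160 TPM in RA and 151 TPM in DMSO, was not part of this sum. Gene cox6b1 took 63.4% ± 6.87 of the cox6b TPM in RA and 57.8% ± 4.69 in DMSO, beside cox6b2. These last splits rest largely on RA replicate 9, where cox6b1 stood at 71.2% and cox7a2b at 32.7% of their families. Shares of near-identical copies are uncertain, since fragments that map to more than 1 place were left out.

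**Figure D2:**
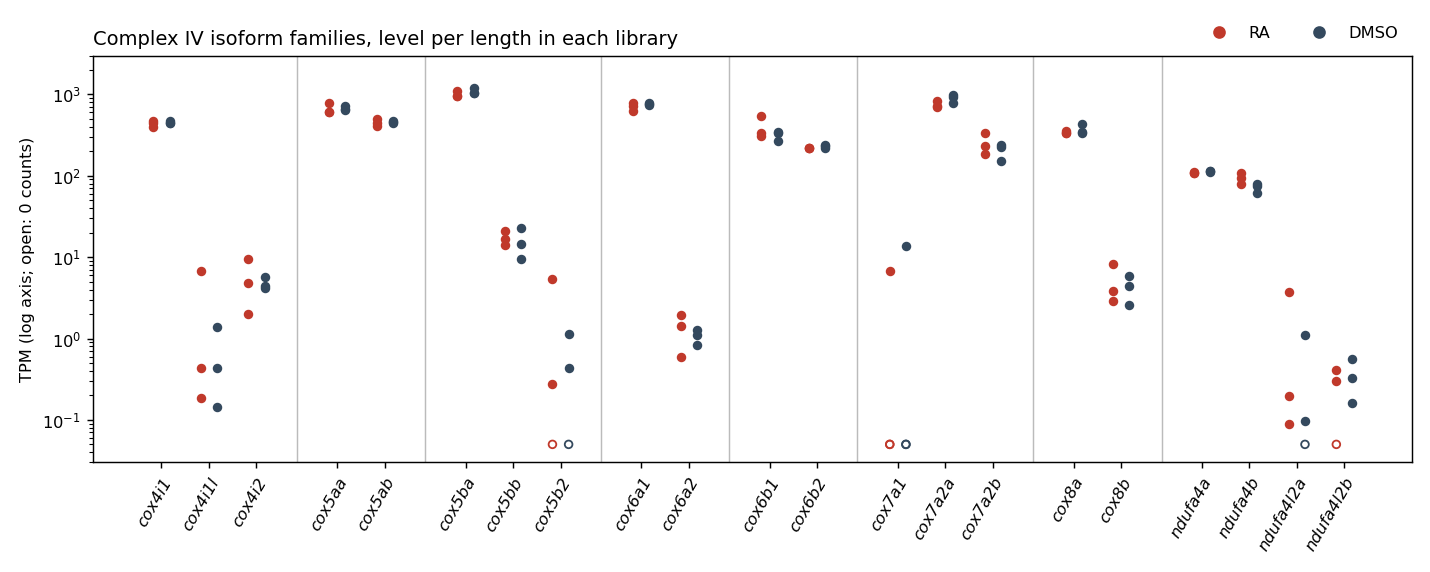
TPM (log axis) of the isoforms of 7 complex IV subunit families and of the ndufa4 family, 1 point per library, RA left and DMSO right; open points stand for 0 counts. In the cox4, cox6a, cox8 and cox5b families 1 isoform lies far above the others in all 6 libraries, while cox5a, cox6b, cox7a and ndufa4 have 2 abundant copies. Gene cox7a2l was not placed in the cox7a family and is not shown.

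RA replicate 9 held both low and high values in complex IV. Of the 19 tested genes, 10 were lowest in that library, where it was lowest in 21.9% of all tested genes. Another 5 of the 19 were highest there, a share near the 21.1% of all tested genes. With untested genes included, 7 of 24 were highest there, namely cox4i1l, cox4i2, cox5b2, cox6b1, cox7a2b, cox8b and ndufa4b, a set picked out after its values were seen. Gene cox6b1 had 146 CPM there, against 72.6 to 98.6 CPM in the other 5 libraries. Gene cox7a2b had 36.6 CPM, against 16.5 to 27.0 CPM elsewhere, and cox4i2 had 3.93 CPM, against 0.861 to 2.39 CPM. The untested cox4i1l had 51 counts in RA replicate 9 and 1 and 3 in the other RA libraries, against 3, 11 and 1 in DMSO. The untested cox5b2 had 27 counts there and 1 and 0 in the other RA libraries, against 2, 6 and 0 in DMSO. This is the library with the highest epidermal and progenitor marker sums, and the part of other cell types in these values was not tested. Of the other untested genes, cox6a2 had 7, 4 and 12 counts in RA and 7, 6 and 8 in DMSO. Gene ndufa4l2a had 30, 1 and 2 counts in RA and 0, 13 and 1 in DMSO.

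ATP synthase consists of a catalytic F1 head and a membrane Fo part joined by stalks. All 20 of its genes were tested, 5 with a positive and 15 with a negative log2 fold change. The median was -0.08, and under other scalings of the libraries it lay between -0.09 and -0.06. When a library was left out it lay between -0.18, without RA replicate 12, and -0.02, without RA replicate 9. The catalytic core had values near 0. Gene atp5f1b, the beta subunit (chromosome 11, 13207898 to 13213059, plus strand), was the most abundant, with 1387, 1276 and 1484 TPM in RA and 1276, 1478 and 1356 TPM in DMSO. Its log2 fold change was 0.01 (adjusted p = 0.996 in edgeR, SE 0.11). Gene atp5f1a, the alpha subunit, lay at 0.03 (SE 0.12), and atp5f1c, the gamma subunit of the rotor, had the highest value at 0.08 (adjusted p = 0.932 in edgeR, SE 0.12).

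The lowest values belonged to 3 small subunits, atp5md, atp5f1e and atp5mg. Gene atp5md, which encodes a small membrane subunit known in mammals as DAPIT (chromosome 1, 49432137 to 49434892, minus strand), had 33.8, 30.3 and 32.1 CPM in RA, against 41.8, 37.2 and 38.3 CPM in DMSO. The log2 fold change was -0.29 (adjusted p = 0.564 in edgeR, SE 0.14). Gene atp5f1e, the epsilon subunit of the stalk, had 106, 102 and 104 CPM in RA and 137, 120 and 119 CPM in DMSO, a log2 fold change of -0.27 (unadjusted p = 0.0443 and adjusted p = 0.470 in edgeR, SE 0.11). Gene atp5mg, subunit g of the membrane part, had 108, 110 and 118 CPM in RA and 136, 135 and 130 CPM in DMSO, a log2 fold change of -0.26 (unadjusted p = 0.0426 and adjusted p = 0.465 in edgeR, SE 0.11). In each of these 3 genes the highest RA library was below the lowest DMSO library.

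Groups did not overlap, with RA lower, in 6 of the 20 ATP synthase genes. Besides the genes just given they were atp5mf (subunit f), atp5pf (coupling factor 6 of the stalk) and atp5mj (a small proteolipid), with log2 fold changes of -0.24, -0.22 and -0.20. DMSO replicate 1 was the highest library in all 6, and in 9 of the 20 ATP synthase genes. Over all tested genes it was highest in 22.6%. Groups overlapped in every other ATP synthase gene, small subunits included. The c subunit genes atp5mc1, atp5mc3a and atp5mc3b lay at -0.07, -0.10 and -0.08, and the subunit e genes atp5mea and atp5meb at -0.12 and -0.07. None of the 6 genes without overlap passed the test under any of 16 alternative settings. Their values stayed negative throughout, but this is no support. Genes picked because every RA library lay below every DMSO library can hardly change sign when a library is left out. Over all 92 genes, RA was lower without overlap in 10 (10.9%), against 7.7% of all tested genes, and higher without overlap in 2 (2.17%), against 7.78%. The other 4 of the 10 were cox7b, cox7c, ndufa4a and uqcr10, and the 2 were ndufa4b and ndufa8. These genes were picked out after their values were seen, and the share of 6 in 20 is a description.

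**Figure D3:**
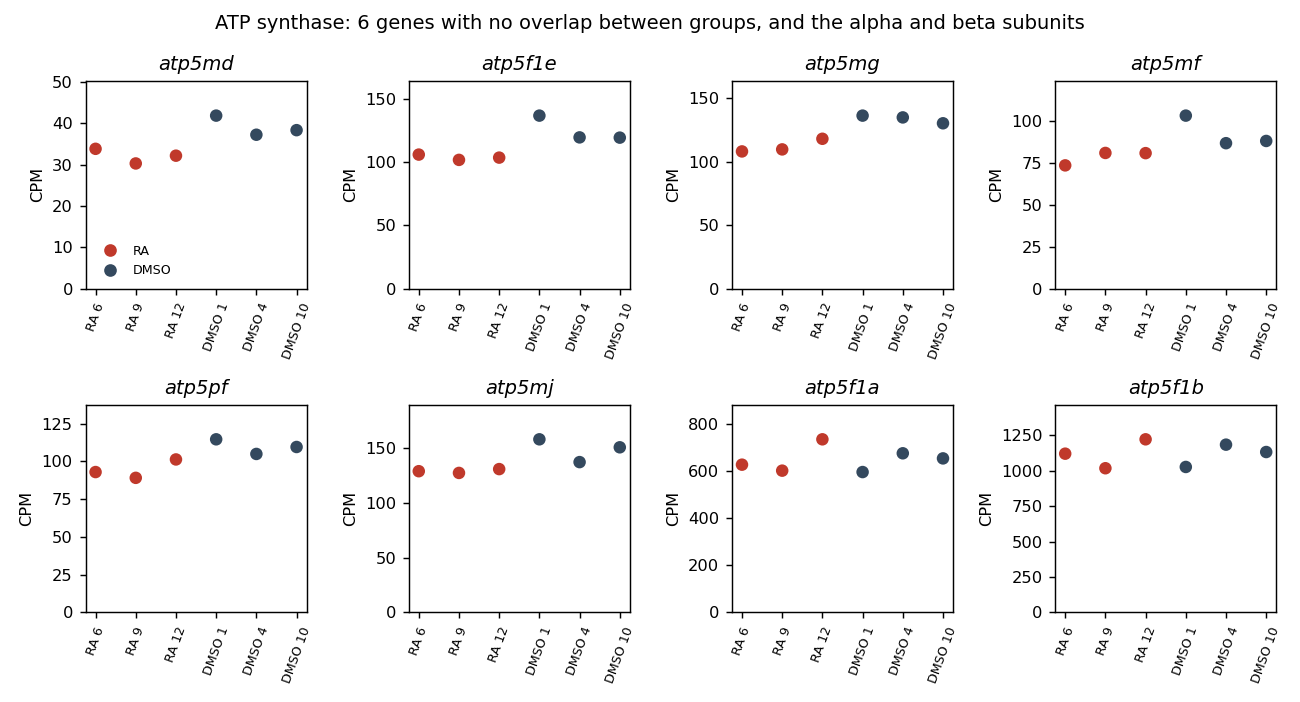
CPM per library (RA left, DMSO right, 1 point per library, axes from 0) of the 6 ATP synthase genes whose groups did not overlap and of the alpha and beta subunits, atp5f1a and atp5f1b. The 6 genes, picked for this, are lower in every RA library, by 0.20 to 0.29 on the log2 scale. The alpha and beta subunits overlap between groups, as do the ATP synthase genes not shown, other small subunits among them.

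The make-up of the remaining ATP synthase families differed between groups by less than the larger of the groups' SDs. Of the genes for the c subunit, which forms the rotating ring, atp5mc1 took 43.8% ± 1.27 of the TPM in RA and 43.7% ± 2.31 in DMSO. Its relatives atp5mc3a and atp5mc3b took 25.9% ± 0.775 and 30.3% ± 2.04 in RA, against 26.2% ± 1.73 and 30.1% ± 1.23 in DMSO (SD, n = 3 throughout). Of the inhibitor genes, whose product blocks ATP hydrolysis, atp5if1a took 72.5% ± 0.679 of the pair in RA and 71.0% ± 5.05 in DMSO. Of the subunit e genes, atp5meb took 63.7% ± 1.19 in RA and 62.9% ± 0.888 in DMSO.

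Differences among the RA libraries were larger than the difference between the groups. RA replicate 9 was the lowest of the 6 libraries in 52 of the 92 genes (56.5%), where it was lowest in 21.9% of all tested genes. RA replicate 12 was the highest in 41 (44.6%), where it was highest in 19.8% of all tested genes. DMSO replicate 1 was the highest in 30 (32.6%), against 22.6% of all tested genes. The median deviation of a gene's log2 CPM from its mean over the 6 libraries was -0.04, -0.12 and 0.11 in RA replicates 6, 9 and 12. It was 0.03, 0.02 and 0.02 in DMSO replicates 1, 4 and 10. The RA libraries thus lay on both sides of the DMSO libraries. The same held for the sum. The 97 genes took 1.25%, 1.15% and 1.38% of all counts in RA, against 1.26%, 1.32% and 1.25% in DMSO, a difference of -0.02 in mean log2 share.

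The median standard deviation of CPM, as a percentage of the mean, was 10.2% in RA and 7.59% in DMSO over the 92 genes. It was larger in RA for 63 of them. Complex III, the assembly factors and complex I had their highest median deviations in RA replicate 12, at 0.17, 0.21 and 0.10, and ATP synthase was lowest in RA replicate 9, at -0.16. Leaving out RA replicate 9 moved the median log2 fold change of the 92 genes to 0.01, and leaving out RA replicate 12 moved it to -0.11. No gene was called in either case.

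**Figure D4:**
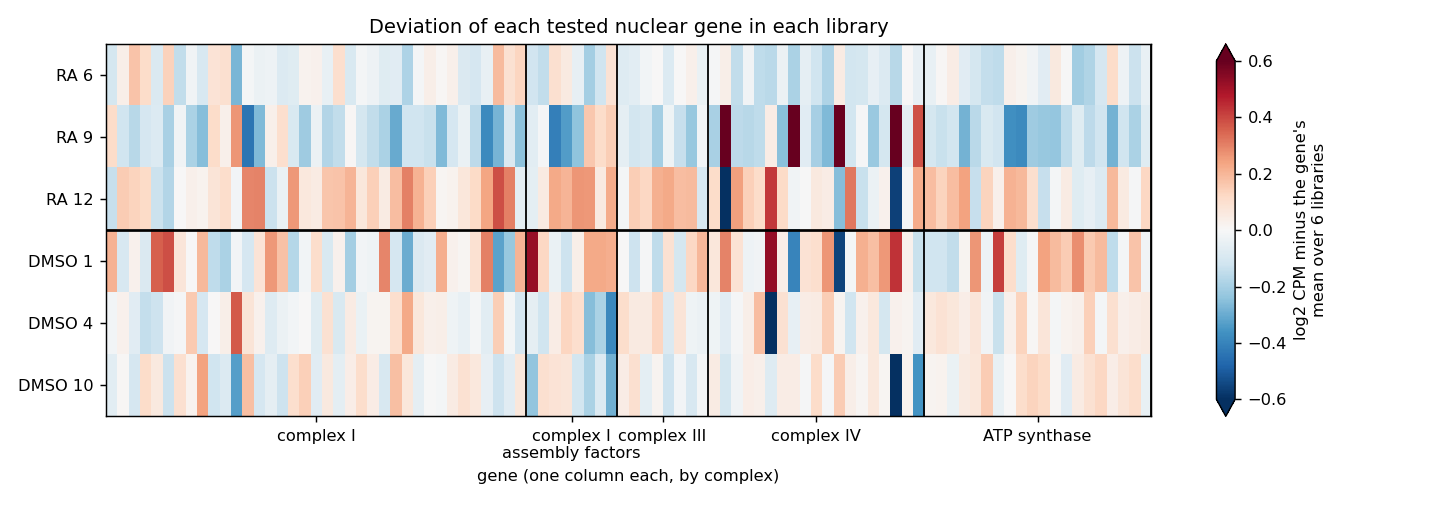
Deviation of each tested nuclear gene's log2 CPM from its mean over the 6 libraries, RA above DMSO, 1 column per gene grouped by complex; red is higher and blue lower, and colours saturate at 0.6. The row of RA replicate 9 is mostly blue, with a few dark red columns in complex IV, and that of RA replicate 12 mostly red, which leaves the group means close together.

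The mitochondrial genome encodes 13 proteins of these same complexes, 2 ribosomal RNAs and 22 transfer RNAs. Its genes took 1.56%, 1.61% and 1.38% of the counts in RA, against 1.98%, 1.52% and 1.77% in DMSO. The difference of -0.21 in mean log2 share gave p = 0.3 in an exact two-sided permutation test, where 3 libraries against 3 cannot give less than 0.1, and 0.45 after adjustment over 3 such tests. Most of these counts were 16S ribosomal RNA. Gene mt-rnr2 took 1.05%, 1.14% and 0.843% of all counts in RA, against 1.39%, 1.07% and 1.25% in DMSO, a difference of -0.29 in mean log2 share (exact permutation p = 0.2, adjusted 0.45). RA replicate 9 lay within the DMSO range. The 13 protein-coding genes took 0.501%, 0.458% and 0.527% in RA, against 0.567%, 0.441% and 0.511% in DMSO, a difference of -0.03 (exact permutation p = 0.9, adjusted 0.9).

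Of the 37 mitochondrial genes 18 were tested, and 0 passed an adjusted p of 0.05 (edgeR), where 0.799% of all tested genes passed. DESeq2 and limma-voom called 0 as well. At an unadjusted p under 0.05 in edgeR there were 2 (11.1%), close to the 10.2% of all tested genes. RA was lower without overlap in 2 (11.1%), against 7.7% of all tested genes, and higher without overlap in 0, against 7.78%. The lowest log2 fold change was that of mt-atp8, an ATP synthase subunit, at -0.73 (adjusted p = 0.457 in edgeR, SE 0.30). It had 6.35, 5.36 and 5.67 CPM in RA and 13.8, 7.17 and 7.92 CPM in DMSO, without overlap. Its reading frame overlaps that of mt-atp6, and fragments on both were left out of the counts. Gene mt-rnr1, the 12S ribosomal RNA, had 125, 113 and 69.2 CPM in RA and 160, 148 and 128 CPM in DMSO, also without overlap, with a log2 fold change of -0.51 (adjusted p = 0.476 in edgeR, SE 0.22). Gene mt-rnr2 lay at -0.31 (adjusted p = 0.562 in edgeR, SE 0.15).

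Gene mt-co1, the catalytic subunit of complex IV, had 1450, 1324 and 1548 CPM in RA and 1496, 1175 and 1540 CPM in DMSO, a log2 fold change of 0.04 (SE 0.13). Values for other mitochondrial mRNAs were -0.06 for mt-co2, -0.10 for mt-co3, -0.08 for mt-cyb, 0.03 for mt-nd4, -0.09 for mt-nd5, -0.11 for mt-nd1, 0.01 for mt-nd2 and -0.15 for mt-nd6. The lowest values among the protein-coding genes after that of mt-atp8 were -0.25 for mt-atp6, -0.33 for mt-nd3 and -0.37 for mt-nd4l. Their standard errors were 0.20, 0.28 and 0.30. Genes mt-atp8, mt-nd4l and mt-nd3 are the shortest of the 13, at 165, 297 and 351 bases. The end of mt-nd4l overlaps the start of mt-nd4, and fragments on both were left out of the counts. The part of gene length and overlap in these values was not tested. A single library was the highest for most of the 13 genes. DMSO replicate 1 was the highest of the 6 libraries in 12 of the 13 mitochondrial protein-coding genes, while the lowest was DMSO replicate 4 in 7 of them and RA replicate 9 in 6.

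**Figure D5:**
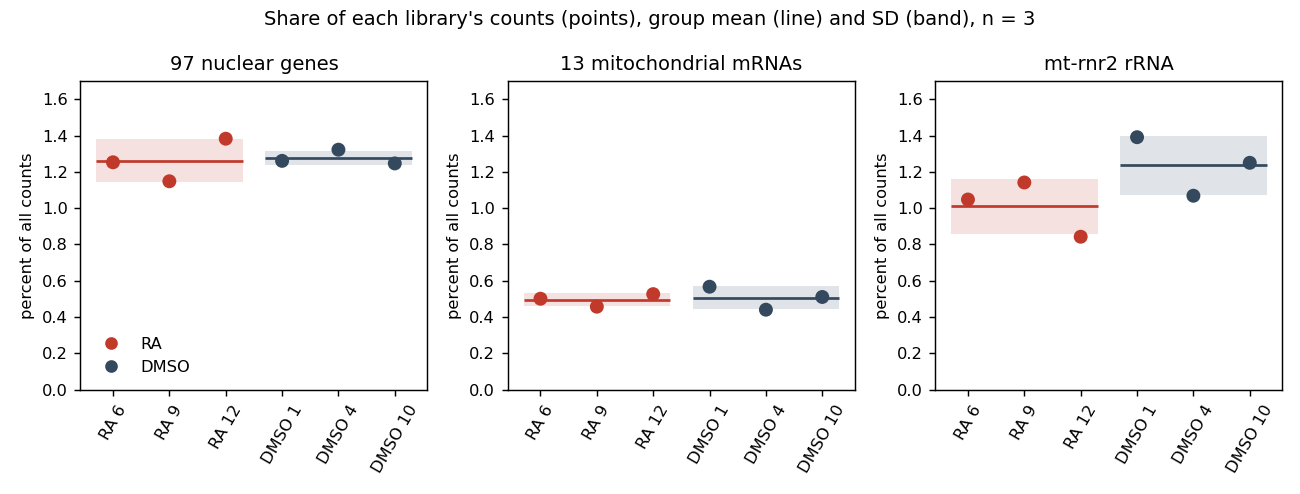
Percentage of each library's counts on the 97 nuclear genes, on the 13 mitochondrial protein-coding genes and on mt-rnr2, with RA left of DMSO; lines are group means and bands the SD (n = 3). The first 2 sets have means that nearly coincide (1.26% in RA and 1.28% in DMSO, 0.495% in RA and 0.506% in DMSO), and mt-rnr2 is at 1.01% in RA and 1.24% in DMSO with overlap.

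Counts on the nuclear genes per count on all mitochondrial genes were 0.802, 0.713 and 1.00 in RA, against 0.638, 0.867 and 0.703 in DMSO, a difference of 0.19 in mean log2 ratio. The groups overlapped, and the difference was 0.05 without RA replicate 12, 0.09 without DMSO replicate 1 and 0.31 without DMSO replicate 4. Per count on the 13 mitochondrial protein-coding genes they were 2.498, 2.509 and 2.62 in RA, against 2.22, 3.00 and 2.44 in DMSO, a difference of 0.01. All 3 RA values of the second ratio lay inside the DMSO range. The share of ribosomal RNA varied more among the RA libraries. Gene mt-rnr2 made up 67.1%, 70.8% and 61.2% of mitochondrial counts in RA, against 70.4%, 70.07% and 70.5% in DMSO. Within single complexes, counts on nuclear complex IV genes per count on mt-co1, mt-co2 and mt-co3 were 0.641, 0.673 and 0.673 in RA, against 0.649, 0.790 and 0.643 in DMSO. Counts on nuclear complex I subunits per count on the 7 mt-nd genes were 4.93, 5.47 and 5.15 in RA, against 4.095, 6.26 and 5.04 in DMSO. These ratios were not tested, since they sum over genes named with results known.

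Other mitochondrial lists likewise held no called gene, where 0.799% of all tested genes passed. None of the tested members passed the edgeR threshold in complex II (5 genes, median log2 fold change 0.02), in the respiratory chain assembly factors (45, median 0.03) or among electron carriers and coenzyme Q enzymes (19, median 0.09). The same was true of the TCA cycle and pyruvate entry (24, median 0.03), the mitochondrial ribosome (78, median -0.00), the mitochondrial DNA and RNA machinery (26, median 0.03) and mitochondrial import and carriers (36, median -0.02). In complex II, sdha had 202, 181 and 239 CPM in RA and 181, 232 and 206 CPM in DMSO. Gene cyc1, the cytochrome c1 subunit of complex III that the symbol rule does not reach, had 380, 290 and 402 CPM in RA and 306, 300 and 288 CPM in DMSO. Its log2 fold change was 0.26 (adjusted p = 0.622 in edgeR, SE 0.14). Gene tfam, which packages mitochondrial DNA and starts its transcription, lay at 0.12 (SE 0.16).

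Among 28 tested regulators of mitochondrial biogenesis, 2 rose with RA and none fell, where 0.446% of all tested genes rose. The list took in retinoid X receptor (rxr) and ppar receptor genes, and both genes that rose were of these. Gene rxrga, a retinoid X receptor, had 513, 289 and 324 CPM in RA, against 117, 133 and 161 CPM in DMSO. Its log2 fold change was 1.46 (adjusted p = 0.0352 in edgeR, SE 0.23). Gene ppardb, a receptor for fatty acids that binds DNA with retinoid X receptors, had 126, 70.9 and 92.3 CPM in RA and 38.1, 36.1 and 45.2 CPM in DMSO. Its log2 fold change was 1.27 (adjusted p = 0.0474 in edgeR, SE 0.22). The rxrga call held without RA replicate 6 or 9 and was lost without any of the other libraries, at adjusted p = 0.0773 to 0.202. The ppardb call held without RA replicate 9 and was lost without any other library, at 0.0993 to 0.237, and with limma-voom, at 0.0644. It also stood at 0.0512 with mitochondrial genes outside the library totals. Over all genes, 138 calls became 9 to 325 when a library was left out. The factors best known for driving respiratory genes did not pass. Gene nrf1, which binds promoters of respiratory genes in mammals, lay at -0.09 (SE 0.14), gabpa, an ETS factor, at -0.06 (SE 0.22), and ppargc1a, the coactivator PGC-1alpha, at 0.39 (adjusted p = 0.627 in edgeR, SE 0.21).

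Of 34 tested glycolysis genes 1 rose, where 0.446% of all tested genes rose. It was eno4, an enolase-like gene, with 3.74, 1.34 and 4.61 CPM in RA against 0.146, 0.211 and 0.251 CPM in DMSO. A count of 3 was 0.146, 0.128 and 0.147 CPM in DMSO replicates 1, 4 and 10. The DMSO values thus rest on a few fragments, and the size of the fold change is uncertain. The log2 fold change of eno4 was 3.95 (adjusted p = 0.0352 in edgeR, SE 0.62). The call was lost with limma-voom, at adjusted p = 0.175, and without any single library but RA replicate 9, at 0.107 to 0.186. The median over the list was 0.23, with 24 positive and 10 negative values. Gene ldha, which turns pyruvate into lactate, had 144, 154 and 193 CPM in RA and 130, 116 and 131 CPM in DMSO, without overlap, but did not pass (log2 fold change 0.38, adjusted p = 0.394 in edgeR, SE 0.14). Of 17 tested retinoic acid targets, 4 rose (cyp26a1, crabp2b, dhrs3a and dhrs3b) and none fell, where 0.446% of all tested genes rose. That list, which also named genes of retinoid synthesis and transport such as aldh1a2 and rbp4, had 12 positive and 5 negative log2 fold changes. Without overlap, RA was higher in 7 (41.2%), against 7.78% of all tested genes, and lower in 3 (17.6%), against 7.7%. Gene crabp2b, a retinoic acid carrier, had 88.5, 68.3 and 90.0 CPM in RA against 15.2, 18.2 and 21.4 CPM in DMSO. All 4 calls were lost without DMSO replicate 4, at adjusted p = 0.0597 to 0.106, and all but that of crabp2b without DMSO replicate 1 or 10, at 0.0664 to 0.125. Calls over all genes also fell, from 138 to 10, 9 and 18 without DMSO replicates 1, 4 and 10. Without DMSO replicate 4 the log2 fold changes were 8.61 for cyp26a1, 7.49 for dhrs3a, 3.60 for dhrs3b and 2.16 for crabp2b. With limma-voom dhrs3a was lost, at 0.148, and with a robust dispersion cyp26a1 and dhrs3a, at 0.0573 and 0.0947. Of 20 tested motor neuron markers, general neuronal genes among them, 3 fell (tbx2a, tbx20 and nefmb) and none rose, where 0.353% of all tested genes fell. The tbx2a call was lost without any single library but RA replicate 9, at 0.0551 to 0.155. Of 16 tested progenitor and glial markers, 2 rose and none fell, where 0.446% of all tested genes rose. The list as a whole had 10 positive and 6 negative log2 fold changes, with a median of 0.07. The 2 that rose were olig2 (log2 fold change 2.22, adjusted p = 0.0285 in edgeR) and gfap (1.00, adjusted p = 0.0352). Both were lost when any single DMSO library was left out or without RA replicate 6, and gfap also without RA replicate 12, at 0.0641 to 0.187. The summed sensory neuron markers lay at 266 to 385 CPM in RA and 447 to 625 CPM in DMSO, and the 18 tested dissociation and stress genes had a median log2 fold change of -1.03. No gene of either list was called. The part of these lists in the values above was not tested.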

How the data were processed

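The deposited tables give each gene's raw fragment count. The authors ran featureCounts 1.6.0, per the file headers, for paired ends without regard to strand, on the Ensembl release 95 annotation of GRCz11, all from 1 sequencing run. Per the submitters' processing notes, STAR 2.5.2a and Subread 1.5.0 were used. Per the labels' protocols, cDNA was amplified with SMART-Seq v4 and made into Nextera XT libraries. Fragments that overlapped several genes or mapped to several places were left out, and fragments of either strand were counted. No molecular identifiers were used.

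Symbols came from a table that named 29201 genes. Where it gave a symbol in capitals (66 of the 97 genes), the zebrafish symbol was taken from RefSeq (GRCz12tu, names only), and mitochondrial RNA names came from the same source. Tests used edgeR 4.0.16 in R 4.3.3 (TMM scaling, filterByExpr, quasi-likelihood F-test, intercept and treatment, two-sided, Benjamini-Hochberg over 17270 genes, threshold 0.05), checked on simulated data. DESeq2 1.42.0 and limma 3.58.1 were alternatives, beside other scalings, filters and leaving out each library. CPM of tested genes are TMM-scaled, TPM use the annotation's exon lengths, and standard errors and 95% intervals come from the edgeR fit.

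Named genes are, per role, the most abundant and those with the highest and lowest log2 fold change, with isoform families, mitochondrial genes and the genes nearest the count limit. The genes, lists and tests were chosen with earlier results of these data known. A planned count of promoter motifs was not run.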

Additional observations from a re-analysis of the deposited data

How the results depend on the processing

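The count of 0 called genes among the 92 nuclear and the 18 mitochondrial genes held under all 16 alternatives, with 0 to 4 of the nuclear genes at an unadjusted p under 0.05 and a smallest adjusted p of 0.243. For all genes called, 138 became 276 with no filter on low counts, 671 with the DESeq2 Wald test and 394 under limma-voom with quality weights, and 9 to 325 when each library was left out. Leaving out each library in turn gave -0.11 to 0.01 for the median log2 fold change of the nuclear genes, -0.31 to -0.12 for the difference in log2 mitochondrial share, -0.09 to 0.04 for that in nuclear share and 0.05 to 0.31 for the log2 ratio of nuclear to mitochondrial counts; the highest median came without RA replicate 9 and the lowest without RA replicate 12. No paired analysis was possible because the labels do not say which RA and DMSO libraries belong together, if any. The 95% interval left 2-fold for cox8b, cox4i2 and cox5bb.

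Of 55 named genes none was called under any alternative, and 30 changed sign under at least 1. The cause was not tested. Under upper-quartile scaling the value was -0.0034 for atp5f1b, -0.0012 for uqcrc1, -0.0019 for uqcrc2a and -0.0050 for mt-nd2. With no filter on low counts it was -0.012 for atp5f1b, -0.0096 for uqcrc1, -0.010 for uqcrc2a, -0.0054 for ndufab1b and -0.013 for mt-nd2. At a mean of at least 10 CPM it was -0.0025 for atp5f1b, -0.00050 for uqcrc1, -0.0015 for uqcrc2a and -0.0062 for mt-nd2. With mitochondrial genes outside the library totals it was -0.0091 for atp5f1b, -0.0067 for uqcrc1, -0.0074 for uqcrc2a, -0.0033 for ndufab1b and -0.011 for mt-nd2. By library size alone it was 0.0080 for ndufaf5. Limma-voom gave -0.042 for cox4i2 and -0.0059 for ndufab1b. With quality weights it gave -0.013 for atp5f1b, -0.14 for cox4i2, 0.0017 for atp5mc1, -0.020 for uqcrc2a, 0.062 for mt-nd1, 0.011 for mt-co3, 0.0032 for mt-nd3, 0.089 for mt-nd5, 0.044 for mt-nd6 and 0.078 for mt-cyb. Leaving out each library gave ranges across 0 for 28 genes: -0.062 to 0.065 for atp5f1b, -0.28 to 0.0047 for atp5if1b, -0.20 to 0.070 for atp5mc1, -0.23 to 0.044 for atp5mc3a, -0.13 to 0.016 for cox4i1, -0.51 to 0.56 for cox4i2, -0.17 to 0.040 for cox5aa, -0.11 to 0.040 for cox5ab, -0.13 to 0.49 for cox5bb, -0.00088 to 0.45 for cox7a2b, -0.36 to 0.49 for cox8b, -0.077 to 0.11 for mt-co1, -0.20 to 0.082 for mt-cyb, -0.20 to 0.022 for mt-nd1, -0.15 to 0.20 for mt-nd2, -0.11 to 0.13 for mt-nd4, -0.60 to 0.017 for mt-nd4l, -0.24 to 0.065 for mt-nd5, -0.33 to 0.040 for mt-nd6, -0.18 to 0.17 for ndufa9b, -0.27 to 0.085 for ndufab1a, -0.15 to 0.13 for ndufab1b, -0.34 to 0.057 for ndufaf1, -0.15 to 0.099 for ndufaf5, -0.10 to 0.040 for ndufb9, -0.056 to 0.053 for uqcrc1, -0.10 to 0.10 for uqcrc2a and -0.020 to 0.14 for uqcrc2b.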
